A study of Mus musculus with 42 samples.

Results

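Chronic corticosterone was compared with chronic vehicle in the liver mRNA of 12 male mice, 6 in each group. These are 12 of the 42 mice of the series, taken by their labels alone: every library titled chronic CORT (mice 1, 2, 3, 25, 26 and 27) and every one titled chronic vehicle (mice 10 to 15). Corticosterone (CORT) is the principal glucocorticoid hormone of the mouse. The other groups of the series are a chronic group given CORT with enzalutamide (ENZA), an antiandrogen, and 4 acute groups given vehicle, CORT, ENZA or both, again with 6 mice each. All mice are male C57B6/J, and no altered allele is named for any group. The sources used here give no ages, doses, routes or treatment lengths. RNA came from snap-frozen liver, and the chronic livers were extracted with a NucleoSpin kit and the acute ones with a Qiagen kit, so that kit and duration cannot be told apart.

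Corticosterone enters cells and binds the glucocorticoid receptor, a transcription factor held in the cytoplasm by chaperones, which then moves to the nucleus and binds palindromic response elements or other factors on DNA. In liver the hormone is known for raising glucose output and amino acid breakdown, for shifting lipid handling and for damping inflammatory gene expression. Its action also depends on supply: a globulin made by the liver carries it in blood, and an enzyme in hepatocytes regenerates it from its inactive form.

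The 12 libraries held 15381724 to 19581723 reads counted to genes, and 18127 to 19457 genes had a count. Mitochondrial genes took 4.42 to 5.78% of the gene counts and the 10 most abundant genes 18.2 to 21.2%. Reads that could not be aligned made up 3.11 to 6.54% in CORT and 6.54 to 8.51% in vehicle. Reads left out as ambiguous between genes made up 2.11 to 2.4% in CORT and 1.9 to 2.05% in vehicle, without overlap. The part of these differences between the groups in the results was not tested. Each level is a CPM value, a count set against the TMM-scaled library size, and is written as the group median with the lowest and highest mouse in brackets and n = 6 per group. CPM is not divided by transcript length, so levels are compared between groups and not between genes. Differences are edgeR log2 fold changes, CORT minus vehicle, ± SE, with p-values adjusted by Benjamini-Hochberg over all 13099 genes tested, and a gene with an adjusted p under 0.05 is called. The labels do not say how the mice were housed. The p-values set each difference against the spread between mice, which was estimated over all 18 chronic libraries, those of CORT+ENZA included.

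Some libraries stood apart before any comparison was made. On the first principal component of the chronic arm, which held 27.8% of the variance, vehicle mouse 11 lay at 10.3, against 34.6 to 41.6 for the other vehicle mice and -32.9 to -15.5 for the CORT mice. The vehicle mice also separated into sets of 3 by clock-controlled genes, and the mouse numbers within each set are consecutive. Dbp, a transcription factor gene of clock output, stood at 70.3, 135 and 142 CPM in vehicle mice 10, 11 and 12 but at 5.61, 6.34 and 1.76 CPM in vehicle mice 13, 14 and 15. Arntl, which encodes the clock activator BMAL1, stood at 10.9, 4.49 and 4.76 CPM in the former and at 21.1, 26.6 and 26.1 CPM in the latter. CORT mouse 1 had 7.6 CPM of Dbp and the other CORT mice 38.4 to 73.7 CPM. Whether the numbers stand for batches or times of day is not stated in the labels. Its part in the results below was not tested, but the comparison was repeated without mouse 11 and with each consecutive set of 3 vehicle or 3 CORT mice alone.

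In all, 2401 of 13099 genes (18.3%) were called, 1184 higher in CORT (9.04%) and 1217 lower (9.29%). A change of at least 1 on the log2 scale was found in 615 of them (4.7% of the genes tested). The 6 CORT mice all lay above the 6 vehicle mice for 508 genes (3.88%) and all below for 596 (4.55%), together 8.43%. The genes with the largest rises that met the naming rule included Sult1e1 and Cyp2b10, enzymes of steroid and drug metabolism, and those with the largest falls were led by the urinary protein pseudogene Mup-ps20, the calcium-binding protein gene Cib3 and the urinary protein gene Mup15. Without vehicle mouse 11, 2761 of 13262 genes were called (20.8%), of which 2226 were also called with all 12 mice, all with the same sign. Of the 182 genes examined singly 156 were called, and 96 of these showed no overlap between the groups. With only vehicle mice 10 to 12 the count over all genes was 1551, with only vehicle mice 13 to 15 it was 2505, with only CORT mice 1 to 3 it was 1424 and with only CORT mice 25 to 27 it was 1642. Those fits kept 114, 125, 104 and 112 of the 156 calls in turn, and the calls lost there are not all named below.

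**Figure D1:**
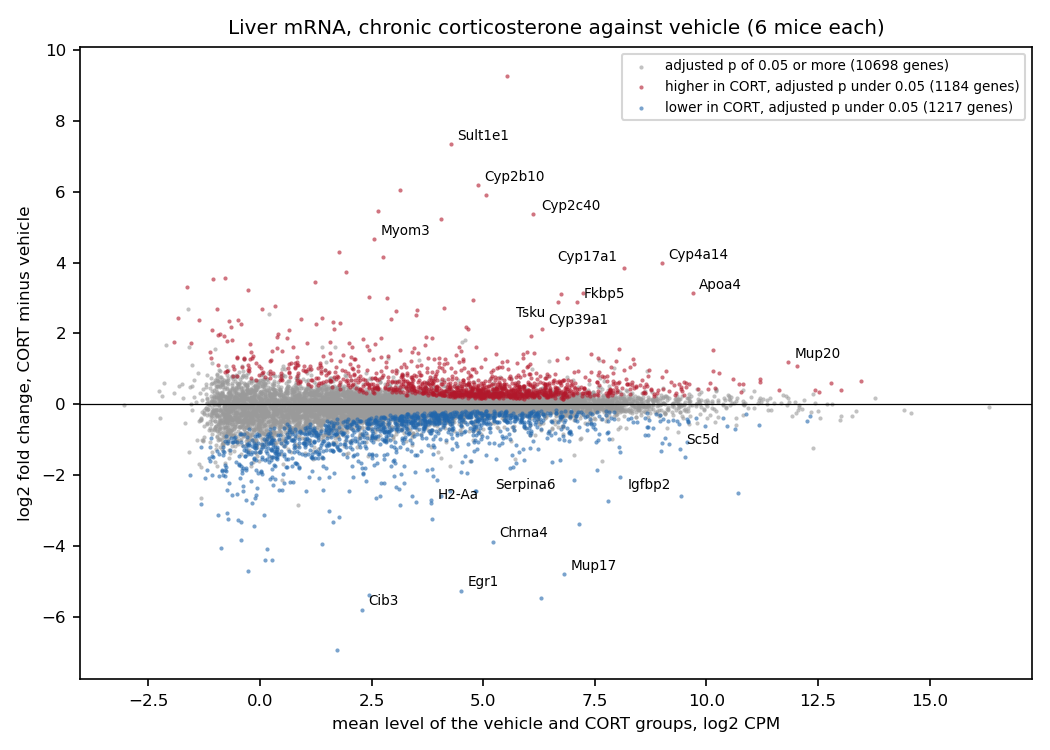
Log2 fold change (CORT minus vehicle, vertical) against the mean level of both groups in log2 CPM (horizontal) for the 13099 genes tested, 1 point per gene. Red points are the 1184 genes called higher, blue points the 1217 called lower, with Sult1e1 labelled at 7.34 and Cib3 at -5.80.

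Of 26 tested glucocorticoid-induced genes 9 were called higher and 1 lower, against 9.04 and 9.29% of all genes, and the carrier of the hormone in blood was lower. The list had a median log2 fold change of 0.72 against -0.01 over all genes tested. Fkbp5 (chromosome 17, 28399094 to 28517527, minus strand, GRCm38), a cochaperone that lowers the hormone affinity of the receptor, stood at 29 CPM in vehicle (10 to 66.1) and 246 CPM in CORT (163 to 314). Its rise was 2.89 ± 0.40 (adjusted p = 0.000108), and the lowest CORT mouse lay above the highest vehicle mouse. Within the vehicle group Fkbp5 followed the clock sets, at 42.7, 66.1 and 50.8 CPM in mice 10 to 12 and 13.1, 15.3 and 10 CPM in mice 13 to 15. The rise was 2.19 against the former (adjusted p = 4e-05) and 4.27 against the latter (adjusted p = 9.69e-08).

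Cebpd, a transcription factor gene of the C/EBP family, rose from 2.59 CPM (1.76 to 3.29) to 6.44 CPM (4.93 to 7.35), by 1.28 ± 0.17 (adjusted p = 5.18e-05), although 15% of its exonic bases are overlapped by another gene. Plin5, a lipid droplet coat protein gene, stood at 35.3 CPM (27 to 76.9) and 86 CPM (59.5 to 118) and rose by 1.04 ± 0.22 (adjusted p = 0.0033). The groups overlapped for Plin5 only through vehicle mouse 11. Per1, a clock gene with a glucocorticoid-driven promoter, rose by 0.91 ± 0.25 (adjusted p = 0.0154), from 20.6 CPM (8.72 to 28.7) to 40.1 CPM (21.4 to 48.3), with overlapping groups. With vehicle mice 10 to 12 alone Per1 had adjusted p = 0.137 and Plin5 0.0675, and with CORT mice 1 to 3 alone Per1 had adjusted p = 0.259.

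Tsc22d3, the glucocorticoid-induced leucine zipper gene, did not pass the test. It stood at 90.9, 70.5 and 61.5 CPM in vehicle mice 10 to 12, at 173, 233 and 172 CPM in vehicle mice 13 to 15 and at 156 to 236 CPM in the CORT mice. The difference was 0.58 ± 0.26 (adjusted p = 0.143), 1.42 with vehicle mice 10 to 12 alone (adjusted p = 0.000127), 0.07 with mice 13 to 15 alone (adjusted p = 0.813) and 0.81 without vehicle mouse 14 (adjusted p = 0.0314). Tat, the tyrosine aminotransferase gene and a textbook target of the hormone, differed by 0.12 ± 0.23 (adjusted p = 0.755). The other called members were Scara5, Ddit4, Mt2, Angptl4 and Gadd45b, called higher, and Pdk4, called lower, and each of these 6 lost its call in 4 to 10 of the 12 fits that left out 1 library. Their adjusted p with all 12 mice lay between 0.0251 for Scara5 and 0.0478 for Angptl4, and the highest without 1 library was 0.268, for Mt2 without CORT mouse 2.

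Genes that set the supply and the sensing of steroids moved in both directions, with 4 of 16 members called higher, 2 lower (9.04 and 9.29% of all genes) and a median of 0.02. Serpina6 (chromosome 12, 103646630 to 103657212, minus strand), which encodes the corticosteroid-binding globulin of blood, stood at 207 CPM in vehicle (137 to 345) and 52.3 CPM in CORT (31.7 to 60.9). It fell by 2.15 ± 0.22 (log2; adjusted p = 3.79e-06), and every CORT mouse lay below every vehicle mouse. Hsd11b1 (chromosome 1, 193221634 to 193264075, minus strand), the reductase that regenerates active corticosterone in hepatocytes, stood at 551 CPM (515 to 706) and 862 CPM (754 to 1080). It rose by 0.62 ± 0.12 (adjusted p = 0.00135), again without overlap.

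Akr1d1, the reductase that inactivates steroid hormones and also serves bile acid synthesis, rose by 0.67 ± 0.11 (adjusted p = 0.000319), from 190 CPM (160 to 205) to 296 CPM (249 to 351). Srd5a1, a steroid 5-alpha reductase gene, had a rise of 0.67 ± 0.15 (adjusted p = 0.00412), an uncertain value because 16.5% of its sequence occurs in another gene. Nr3c1, the glucocorticoid receptor gene itself, stood at 87.9 CPM (73.2 to 105) and 72.6 CPM (65.7 to 82.1) with overlapping groups, and its difference of -0.27 ± 0.08 (adjusted p = 0.0297) lost its call in 6 of the 12 fits that left out 1 library, with adjusted p up to 0.0846 without vehicle mouse 12. Nr3c2, which encodes the mineralocorticoid receptor, differed by -0.23 ± 0.12 (adjusted p = 0.204).

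**Figure D2:**
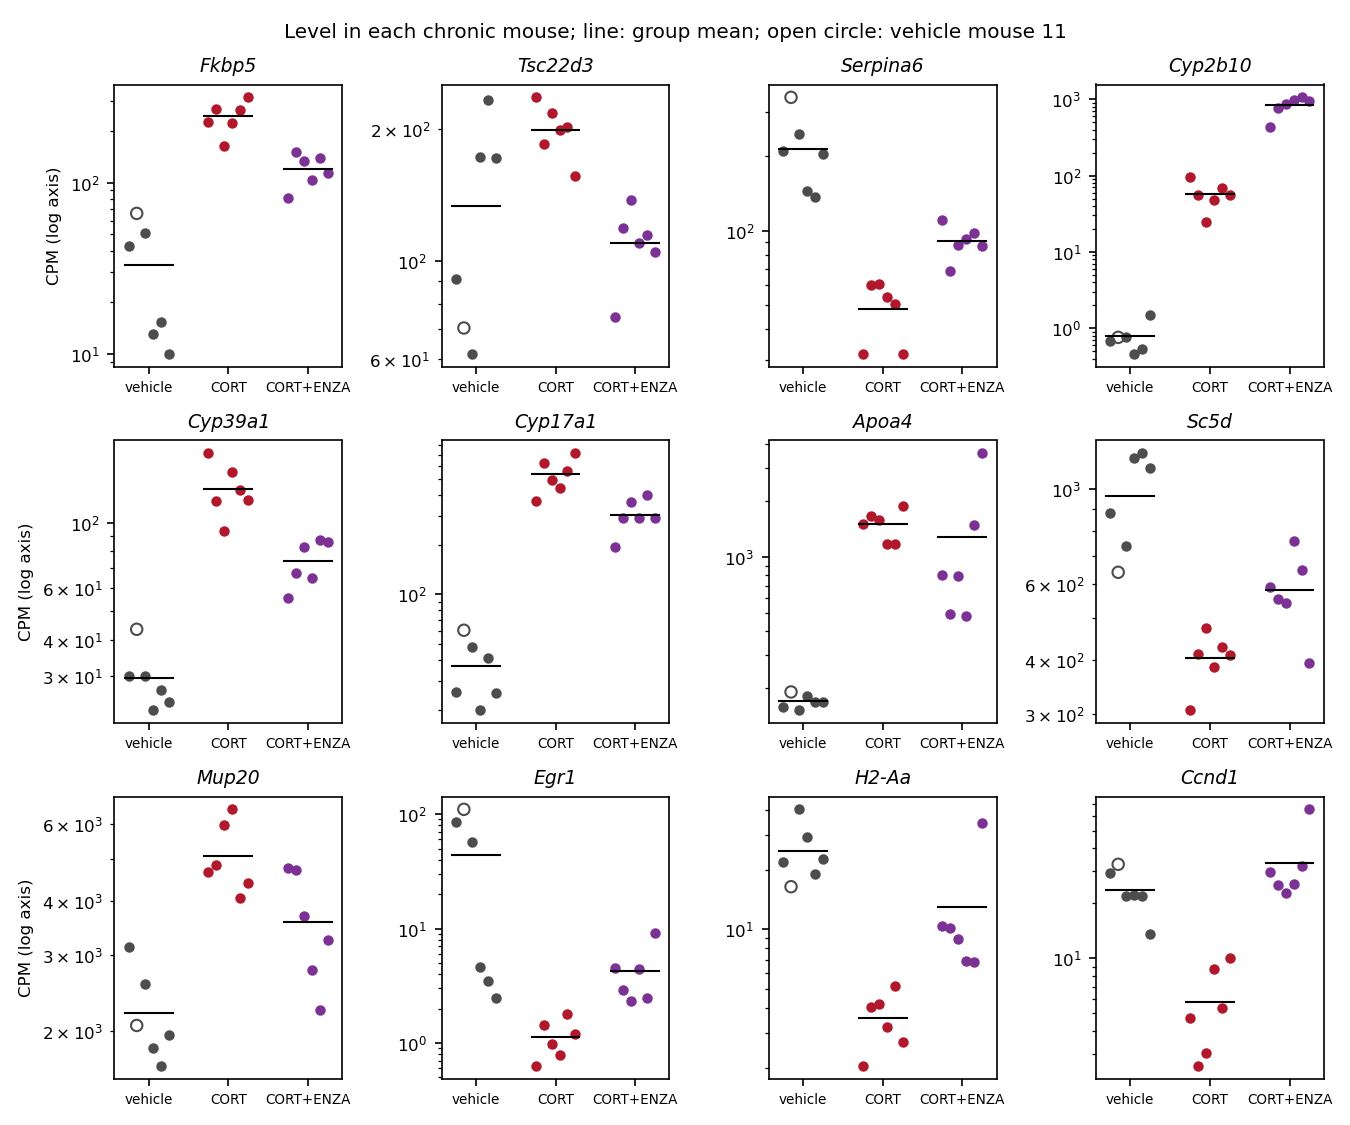
CPM in each chronic mouse on log axes for 12 genes, 1 point per mouse, with the group mean as a line and vehicle mouse 11 as an open circle. Fkbp5, Serpina6, Cyp2b10, Cyp39a1, Cyp17a1, Apoa4, Sc5d, Mup20, Egr1, H2-Aa and Ccnd1 show no overlap between the 6 vehicle and 6 CORT mice, while Tsc22d3 overlaps and is split within vehicle.

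The promoters of 2 genes that rose show what a match to the receptor's palindrome looks like in these data. RefSeq (GRCm38.p6) gave a stretch from 250 bases before to 50 bases after the start for 9932 of the genes tested. The full palindrome (AGAACA, any 3 bases, TGTTCT), searched on both strands, occurred in 1 of them, that of Acnat2 (chr4:49408102-49408401, minus strand), with its first base at -102, where the start is base 1. Its core (ACA, any 3 bases, TGT), which lies within the full palindrome, occurred in 4.25% of all 9932, in 6.11% of the 900 promoters of genes called higher and in 4.3% of the 906 of genes called lower. The promoter of Klb (chr5:65348161-65348460, plus strand) held the core at 2 places, with first bases at -155 and 8. Capitals mark the palindrome in Acnat2 and the cores in Klb, and both are written 5′ to 3′ on the strand of the gene.
Acnat2: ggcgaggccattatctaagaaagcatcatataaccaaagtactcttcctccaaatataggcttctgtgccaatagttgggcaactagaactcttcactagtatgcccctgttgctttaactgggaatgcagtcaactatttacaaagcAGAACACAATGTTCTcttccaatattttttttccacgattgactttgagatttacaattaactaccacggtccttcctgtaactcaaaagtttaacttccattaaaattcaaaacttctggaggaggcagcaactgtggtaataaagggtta
Klb: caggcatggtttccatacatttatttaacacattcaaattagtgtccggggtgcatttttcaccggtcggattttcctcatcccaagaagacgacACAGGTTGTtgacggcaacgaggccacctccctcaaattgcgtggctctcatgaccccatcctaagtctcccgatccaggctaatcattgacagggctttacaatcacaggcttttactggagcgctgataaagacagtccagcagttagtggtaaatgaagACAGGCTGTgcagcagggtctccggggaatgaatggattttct

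A match is a description of the letters and not a binding site. Acnat2, an acyltransferase gene that conjugates fatty acids to amino acids, rose from 19.2 CPM (12.3 to 35.5) to 195 CPM (150 to 243), by 3.12 ± 0.28 (adjusted p = 1.71e-06), an uncertain value because 31.5% of its sequence occurs in another gene. Klb, which encodes the beta-Klotho coreceptor for FGF21, rose by 0.63 ± 0.09 (adjusted p = 8.78e-05), from 42 CPM (38.8 to 49) to 65 CPM (60.2 to 79.6). Neither gene showed overlap between the groups. The promoter of Fkbp5 held neither the palindrome nor its core in this window.

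Of 24 genes that are usually higher in female than in male mouse liver, 6 were called higher and 2 lower in these male mice given CORT, and of 25 male-biased genes 1 was called higher and 9 lower. As background, sex bias in mouse liver follows the rhythm of growth hormone release, which in males comes in pulses that are relayed by the receptor Ghr and the transcription factor STAT5b. Of the female-biased list 13 members were tested, with a median of 2.51. The other 11 were too low to be tested, so the median describes only the members that passed the filter on low counts, and a member that passed through its level in CORT alone had to differ. The 25 male-biased members, all tested, had a median of -0.68, and 9.04% of all genes were called higher and 9.29% lower.

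Cyp17a1 (chromosome 19, 46667165 to 46673172, minus strand), the steroid 17-alpha hydroxylase gene, rose by 3.86 ± 0.27 (adjusted p = 5.17e-08), from 33.5 CPM (19.9 to 60.6) to 527 CPM (366 to 715). Fmo2, a monooxygenase gene, rose by 2.94 ± 0.33 (adjusted p = 1.16e-05), from 5.84 CPM (3.56 to 9.41) to 41.7 CPM (24.3 to 101). Neither gene overlapped between the groups. Cyp2c69 and Cyp2c40, 2 cytochrome P450 genes of the arachidonic acid and drug metabolising family, had rises of 5.92 ± 0.59 and 5.37 ± 0.52 (adjusted p = 4.17e-06 and 3.46e-06), but another gene also holds 54.8 and 72.1% of their sequence.

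The remaining female-biased members showed that the list did not move as one. Atp6v0d2, a proton pump subunit gene, fell by 2.04 ± 0.27 (adjusted p = 4.98e-05), from 2.98 CPM (1.91 to 5.82) to 0.903 CPM (0.305 to 1.14). Abcd2, a peroxisomal fatty acid transporter gene, fell by 1.43 ± 0.37 (adjusted p = 0.0127), with overlapping groups. Cyp2b9, among the most female-specific genes of mouse liver, stood at 12.4 CPM in CORT mouse 26 and at 0 to 1.05 CPM in the other CORT mice, against 0.178 to 4.96 CPM in vehicle, and differed by 0.84 ± 1.13 (adjusted p = 0.653). Acot3, an acyl-CoA thioesterase gene, had a rise of 2.51 ± 0.76 (adjusted p = 0.0295) that lost its call in 7 of the 12 fits without 1 library (adjusted p up to 0.0617), and 4.25 without vehicle mouse 11 (adjusted p = 0.000276), which held 15.7 CPM.

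The major urinary proteins, secreted pheromone carriers that male mice make in excess, did not all move one way. Mup1, Mup7, Mup11, Mup17 and Mup20 are on the male-biased list, and the others named here are not. Mup15, Mup17 and Mup18 had medians of 123, 174 and 9.2 CPM in vehicle and 1.1, 2.95 and 0.224 CPM in CORT and fell by 5.48 ± 1.09, 4.80 ± 0.97 and 5.40 ± 0.75 (adjusted p = 0.00241, 0.00268 and 0.000112). Mup1, Mup11, Mup12 and Mup14 fell by 2.71 to 3.39. Mup20, known as darcin, the protein that attracts females, was higher instead, at 2010 CPM (1660 to 3130) and 4740 CPM (4050 to 6500), a rise of 1.20 ± 0.19 (adjusted p = 0.000261). From 50.5% (Mup20) to 100% (Mup15) of the sequence of these genes occurs in another gene, so their values are uncertain. Reads without a unique alignment have a summary line of their own, left out here, which held 18.6 to 22.1% of each of the 12 libraries. Mup-ps20 shares only 2.35% and fell from 653 counts in the vehicle mice together to 5 in the CORT mice, a log2 fold change of -6.95 ± 0.71 (adjusted p = 3.45e-06). With CORT mice 1 to 3 alone, Mup1, Mup11, Mup12, Mup14, Mup15 and Mup17 lost their calls (adjusted p = 0.0565, 0.135, 0.078, 0.0538, 0.0574 and 0.0605), and Mup11 also lost its call with vehicle mice 13 to 15 alone (adjusted p = 0.0899).

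Elovl3, a fatty acid elongase gene, fell by 1.20 ± 0.22 (adjusted p = 0.00117), from 403 CPM (243 to 451) to 155 CPM (97.2 to 220). Cyp2u1, a fatty acid hydroxylase gene, fell by 1.27 ± 0.20 (adjusted p = 0.000312), from 42.2 CPM (27.6 to 49.3) to 14.8 CPM (10.9 to 25.1), with 10.5% of its exonic bases overlapped by another gene. Hsd3b5, a strongly male-biased steroid dehydrogenase gene, overlapped between the groups at 395 CPM (238 to 426) and 236 CPM (78.5 to 331) and differed by -0.68 ± 0.46 (adjusted p = 0.328).

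In the growth hormone and IGF-1 axis, 4 of 16 members were called lower and none higher, with a median of -0.28. Igfbp2, a secreted IGF-binding protein gene, fell by 2.05 ± 0.22 (adjusted p = 5.41e-06), from 361 CPM (331 to 648) to 103 CPM (80.9 to 125), without overlap. Ghr, the growth hormone receptor gene, stood at 583 CPM (469 to 690) and 413 CPM (360 to 474) and fell by 0.48 ± 0.12 (adjusted p = 0.00824). Stat5b and Stat5a fell by 0.43 ± 0.10 and 0.44 ± 0.13 (adjusted p = 0.00747 and 0.0186), each with 1 mouse or more overlapping and with 11.8 and 10.8% of the sequence found in another gene. Igf1, the main secreted product of the axis, stood at 526 CPM (399 to 658) and 588 CPM (384 to 637) and differed by 0.05 ± 0.13 (adjusted p = 0.828). The 4 calls among 16 are to be read against 9.29% of all genes called lower. Igfbp2 kept its call in each set of 3 mice. Stat5b and Stat5a lost theirs with vehicle mice 10 to 12 alone (adjusted p = 0.145 and 0.127) and with CORT mice 25 to 27 alone (0.0562 and 0.113). With CORT mice 1 to 3 alone Stat5a and Ghr had adjusted p = 0.0554 and 0.0876. Against vehicle mice 13 to 15 alone Ghr differed by -0.26 (adjusted p = 0.163).

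Drug metabolism genes under the xenobiotic receptors CAR and PXR had 9 of 26 members called higher, against 9.04% of all genes, 2 lower and 15 not called, with a median of 0.47. Without vehicle mouse 11, 13 were called higher, against 10.1% of all genes. Cyp2b10 (chromosome 7, 25897620 to 25926624, plus strand), the hallmark target of CAR, stood at 0.718 CPM (0.458 to 1.49) and 55.5 CPM (24.3 to 96.8) and rose by 6.18 ± 0.37 (adjusted p = 1.13e-08). Sult1e1, the estrogen sulfotransferase gene, had 23 counts in the vehicle mice together and 4273 in the CORT mice and rose by 7.34 ± 0.72 (adjusted p = 3.95e-06). The lowest CORT mouse lay above the highest vehicle mouse for both.

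Tsku, which encodes the secreted protein tsukushi, rose by 2.88 ± 0.25 (adjusted p = 7.12e-07), from 22.1 CPM (14.6 to 39.7) to 162 CPM (119 to 310). Fmo5, another monooxygenase gene, rose by 1.52 ± 0.13 (adjusted p = 4.07e-07), from 617 CPM (444 to 647) to 1690 CPM (1370 to 2150). Cyp2c29 and Cyp3a13, both cytochrome P450 genes, rose by 0.59 ± 0.11 and 0.90 ± 0.14 (adjusted p = 0.00106 and 0.000189) without overlap. Cyp3a11, the classical PXR target, rose by 0.93 ± 0.25 (adjusted p = 0.0126) with overlap, at 769 CPM (581 to 1060) and 1280 CPM (723 to 2880). Cyp2c55, which CAR and PXR ligands induce, went the other way and fell by 1.34 ± 0.31 (adjusted p = 0.00581), from 3.36 CPM (2.28 to 4.41) to 0.975 CPM (0.779 to 2.22). Abcb1a, a drug efflux pump gene, had a rise of 1.85 ± 0.26 (adjusted p = 8.04e-05), with 17% of its sequence found in another gene. Of 13 tested targets of the stress sensors NRF2 and AhR, 4 were called higher and 2 lower, with a median of -0.06. Over all genes the shares were 9.04 and 9.29%.

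Several genes of lipoprotein secretion and phospholipid uptake were called higher and are named singly here. No separate list of lipoprotein assembly was examined. Mttp, Tm6sf2 and Apob are members of the lipid droplet and triglyceride list and are counted again with it below. Apoa4, an apolipoprotein gene of triglyceride-rich particles, stood at 167 CPM (152 to 190) and 1530 CPM (1170 to 1870) and rose by 3.14 ± 0.41 (adjusted p = 5.58e-05), although 69.8% of its exonic bases are overlapped by another gene. Mttp, the transfer protein gene that loads triglyceride onto apolipoprotein B, rose by 0.52 ± 0.08 (adjusted p = 0.000214), from 339 CPM (308 to 352) to 494 CPM (411 to 517). Tm6sf2, a gene of the same secretory step, rose by 0.74 ± 0.13 (adjusted p = 0.00078), and Apob itself by 0.41 ± 0.12 (adjusted p = 0.0171). Mfsd2a (chromosome 4, 122946850 to 122961188, minus strand), the lysophosphatidylcholine transporter gene that takes up docosahexaenoic acid, rose by 3.13 ± 0.37 (adjusted p = 2.24e-05), from 33.6 CPM (10.5 to 48) to 299 CPM (131 to 364).

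Gpat4, an enzyme gene of the first step of triglyceride assembly, rose by 0.47 ± 0.10 (adjusted p = 0.00244), and Fitm1, a lipid droplet budding factor gene, fell by 1.35 ± 0.34 (adjusted p = 0.00945, with 11.2% of exonic bases overlapped). In all, 5 of 23 tested members of the lipid droplet and triglyceride list were called higher and 1 lower, against 9.04 and 9.29% of all genes, with a median of 0.10. Without vehicle mouse 11, 8 were called higher, against 10.1% of all genes.

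Cholesterol synthesis and uptake had 11 of 25 members called lower, against 9.29% of all genes, 2 higher, and a median of -0.64. Sc5d (chromosome 9, 42251595 to 42264256, minus strand), the lathosterol oxidase gene near the end of the pathway, fell by 1.25 ± 0.17 (adjusted p = 4.67e-05), from 997 CPM (640 to 1210) to 412 CPM (306 to 474), without overlap. Sqle, the squalene epoxidase gene, stood at 83.3 CPM (35.7 to 123) and 27.3 CPM (15 to 32.6) and fell by 1.66 ± 0.33 (adjusted p = 0.00236). Lss, the lanosterol synthase gene, fell by 1.25 ± 0.29 (adjusted p = 0.00664) and Insig1, a sterol-induced brake on the SREBP pathway, by 0.88 ± 0.22 (adjusted p = 0.00886). Hmgcs1, the HMG-CoA synthase gene at the start of the pathway, fell by 1.35 ± 0.34 (adjusted p = 0.0102), with 12.1% of its exonic bases overlapped and with overlapping groups.

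The members did not all fall: Insig2, which like Insig1 retains the SREBP complex, rose by 0.45 ± 0.12 (adjusted p = 0.011). Of the genes named here, Sc5d was the one called in each set of 3 mice. With vehicle mice 10 to 12 alone, Sqle, Lss and Hmgcs1 had adjusted p = 0.0548, 0.129 and 0.239. With CORT mice 25 to 27 alone, Lss, Insig1, Hmgcs1 and Insig2 had adjusted p = 0.0876, 0.103, 0.0532 and 0.23. Hmgcs1 also lost its call with CORT mice 1 to 3 alone (adjusted p = 0.12) and Insig2 with vehicle mice 13 to 15 alone (adjusted p = 0.0785).

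De novo lipogenesis had 6 of 20 members called lower, against 9.29% of all genes, and none higher, with a median of -0.34. Elovl5, an elongase gene of polyunsaturated fatty acids, fell by 1.06 ± 0.21 (adjusted p = 0.00158), from 944 CPM (612 to 1560) to 496 CPM (355 to 593), without overlap. Acly, the ATP citrate lyase gene that supplies acetyl-CoA, fell by 1.48 ± 0.42 (adjusted p = 0.0207), but the vehicle mice followed the clock sets, at 638, 231 and 475 CPM in mice 10 to 12 and 1460, 2560 and 1130 CPM in mice 13 to 15. Against mice 10 to 12 alone its difference was -0.21 (adjusted p = 0.704), and without vehicle mouse 14 it was -1.02 (adjusted p = 0.0637). Fasn, the fatty acid synthase gene, was also higher in vehicle mice 13 to 15 (2290 to 4090 CPM) than in 10 to 12 (472 to 1200 CPM) and differed by -0.58 ± 0.41 (adjusted p = 0.346), with 0.48 against mice 10 to 12 alone (adjusted p = 0.468) and -1.17 against mice 13 to 15 alone (adjusted p = 0.0267). Srebf1 and Scd1, the regulator and the main desaturase of the pathway, differed by 0.19 ± 0.18 and -0.24 ± 0.28 (adjusted p = 0.503 and 0.596).

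For fatty acid oxidation and its PPAR-alpha targets the counts moved with vehicle mouse 11. With all 12 mice 4 of 29 members were called higher and 2 lower, near the 9.04 and 9.29% of all genes, with a median of 0.09. Without mouse 11 the counts were 10 and 2, against 10.1 and 10.7% of all genes, and the median was 0.29. Cyp4a14, an omega-hydroxylase gene and PPAR-alpha target, stood at 192 CPM in mouse 11, at 13.2 to 98.5 CPM in the other vehicle mice and at 682 CPM (432 to 2620) in CORT. Its rise was 3.98 ± 0.77 (adjusted p = 0.00184), and 4.80 without mouse 11 (adjusted p = 0.000462). Cyp4a10, its neighbour in the family, differed by 1.26 ± 0.54 (adjusted p = 0.116) by 1.86 without mouse 11 (adjusted p = 0.0159) and by 1.41 in limma-voom (adjusted p = 0.0419), with 30.5% of its sequence found in another gene.

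Acot1 and Acot4, thioesterase genes of fatty acid breakdown, rose by 2.14 ± 0.43 and 1.42 ± 0.25 (adjusted p = 0.00243 and 0.000696), with 18.8% of the sequence of Acot1 found in another gene. Without mouse 11 neither overlapped between the groups. Bdh1, the ketone body dehydrogenase gene, fell by 1.07 ± 0.15 (adjusted p = 6.11e-05), from 236 CPM (205 to 355) to 117 CPM (94.3 to 146), with 13.7% of its exonic bases overlapped. Cpt1a, the gateway enzyme gene of mitochondrial oxidation, stood at 328 CPM (244 to 615) and 342 CPM (254 to 425) and differed by -0.14 ± 0.20 (adjusted p = 0.676).

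Bile acid genes were called higher in 5 of 22 cases and lower in none, against 9.04 and 9.29% of all genes, with a median of 0.22. Cyp39a1 (chromosome 17, 43667425 to 43751431, plus strand), the oxysterol 7-alpha hydroxylase gene of an alternative synthesis route, stood at 28.6 CPM (23 to 43.4) and 125 CPM (94 to 173). It rose by 2.14 ± 0.17 (adjusted p = 1.13e-07), without overlap. Nr1h4, which encodes the bile acid receptor FXR, rose by 0.57 ± 0.11 (adjusted p = 0.00167), and Abcb11, the bile salt export pump gene, by 0.43 ± 0.12 (adjusted p = 0.0142). Cyp2c70, which makes the muricholic acids of mice, rose by 0.63 ± 0.16 (adjusted p = 0.00886).

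Cyp7a1 and Cyp8b1, genes of the classical route, missed the threshold with all 12 mice. Akr1d1, named above among the steroid genes, is also on the bile acid list and was called higher. Cyp7a1, the rate-limiting enzyme gene of bile acid synthesis, stood at 45.5 CPM (19.4 to 75) and 71.6 CPM (12.4 to 181) and differed by 1.00 ± 0.50 (adjusted p = 0.18). Cyp8b1, which sets the share of cholic acid, stood at 185 to 382 CPM in vehicle. In CORT it stood at 242 and 195 CPM in mice 2 and 3 and at 28.1 to 51.6 CPM in the other 4, a difference of -1.59 ± 0.60 (adjusted p = 0.0771), and of -2.06 without CORT mouse 2 (adjusted p = 0.031). Cyp8b1 was also called by limma-voom (-2.27, adjusted p = 0.00392), without CORT+ENZA mouse 18 (-1.58, adjusted p = 0.0484) and with CORT mice 25 to 27 alone (-2.80, adjusted p = 0.0177).

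Of 22 genes of gluconeogenesis and glycogen, 6 were called higher and 1 lower, against 9.04 and 9.29% of all genes, with a median of 0.11. Those called higher include genes of glycolytic control (Pfkfb1, Pfkfb3), of glucose output (the pyruvate carboxylase gene Pcx and the transporter gene Slc37a4) and of their regulation (Foxo1). Pfkfb3, a bifunctional enzyme gene that raises the glycolytic activator fructose 2,6-bisphosphate, rose by 1.61 ± 0.26 (adjusted p = 0.000373), from 13 CPM (9.87 to 18.4) to 39.2 CPM (25 to 69.1). Slc37a4, the glucose 6-phosphate carrier gene, rose by 0.49 ± 0.11 (adjusted p = 0.00374). Ppp1r3g, a glycogen-targeting phosphatase subunit gene, fell by 4.39 ± 0.65 (adjusted p = 0.000146), from 218 counts in the vehicle mice together to 11 in the CORT mice.

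Pck1, the phosphoenolpyruvate carboxykinase gene, stood at 3090, 1920 and 3500 CPM in vehicle mice 10 to 12, at 1040, 1120 and 528 CPM in vehicle mice 13 to 15 and at 1180 to 3200 CPM in CORT. It differed by 0.38 ± 0.36 (adjusted p = 0.504), by -0.23 against mice 10 to 12 alone (adjusted p = 0.633) and by 1.45 against mice 13 to 15 alone (adjusted p = 0.00387). G6pc, the glucose 6-phosphatase gene, was split the other way, at 189, 183 and 286 CPM and at 979, 837 and 854 CPM, with 291 to 602 CPM in CORT. Its difference of -0.31 ± 0.38 (adjusted p = 0.614) was 1.03 against the former (adjusted p = 0.0132) and -0.97 against the latter (adjusted p = 0.00442), so its direction depended on which vehicle mice were used.

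In insulin and FGF21 signalling, 3 of 16 members were called higher and 1 lower, against 9.04 and 9.29% of all genes, with a median of -0.17. Pik3r1, a regulatory subunit gene of PI3 kinase that glucocorticoids are known to raise, rose by 0.70 ± 0.10 (adjusted p = 0.000144), from 74.9 CPM (59.6 to 84.3) to 116 CPM (90.2 to 144). Fgfr4, the partner receptor gene of beta-Klotho, rose by 0.32 ± 0.09 (adjusted p = 0.0171). Fgf21 and Igfbp1, 2 secreted fasting signals, differed by 0.53 ± 0.59 and -0.73 ± 0.54 (adjusted p = 0.576 and 0.38).

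Of 32 amino acid catabolism genes, 7 were called higher and 2 lower, against 9.04 and 9.29% of all genes, with a median of 0.10, and of 8 urea cycle genes 2 were called higher. Asl and Arg1, which encode the last 2 enzymes of the urea cycle, stood at 394 CPM (283 to 444) and 1470 CPM (1120 to 1660) in vehicle and at 636 CPM (558 to 752) and 2190 CPM (1770 to 2440) in CORT. They rose by 0.77 ± 0.10 and 0.56 ± 0.11 (adjusted p = 4.78e-05 and 0.00118), both without overlap. Bhmt, a betaine methyltransferase gene, had a rise of 1.07 ± 0.25 (adjusted p = 0.00681), with 11.8% of its sequence found in another gene. Amdhd1, an enzyme gene of histidine breakdown, and Agxt, the glyoxylate aminotransferase gene, fell by 0.52 ± 0.12 and 0.82 ± 0.20 (adjusted p = 0.00442 and 0.00876).

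Interferon-stimulated genes, the antiviral programme that interferons switch on, were lower as a list. Of 29 tested members 22 were called lower and none higher, against 9.29% of all genes called lower, with a median of -1.12. In 17 of the 29 every CORT mouse lay below every vehicle mouse, against 4.55% of all genes, and without vehicle mouse 11 the count called lower was 21. The 29 genes together took 793 CPM in vehicle (748 to 876) and 565 CPM in CORT (487 to 711).

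Interferon-stimulated response elements, the sites bound by interferon regulatory factors, can be read in the promoters of these genes. The motif (GAAA, any 2 bases, GAAA) was added after the values were seen and was searched on both strands, where overlapping copies count as separate sites. It occurred in 3.12% of the 9932 promoters, in 6.07% of those of genes called lower, in 1.33% of those called higher and in 13 of the 21 list members that had a promoter (61.9%). The promoters of Isg15 (chr4:156200769-156201068, minus strand), Gbp3 (chr3:142559794-142560093, plus strand) and Rsad2 (chr12:26456403-26456702, minus strand) are shown because they hold 3, 2 and 1 matches, with first bases at -78, -72 and -66, at -45 and -39, and at -120 from the start. They are written on the strand of the gene, capitals mark the matches, and those of Gbp3 and Rsad2 read on the other strand as TTTC, any 2 bases, TTTC.
Isg15: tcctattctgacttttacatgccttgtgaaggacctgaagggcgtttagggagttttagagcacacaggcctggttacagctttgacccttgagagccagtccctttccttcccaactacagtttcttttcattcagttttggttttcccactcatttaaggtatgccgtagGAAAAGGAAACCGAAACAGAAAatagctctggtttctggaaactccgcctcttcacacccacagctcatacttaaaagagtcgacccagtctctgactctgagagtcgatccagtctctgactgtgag
Gbp3: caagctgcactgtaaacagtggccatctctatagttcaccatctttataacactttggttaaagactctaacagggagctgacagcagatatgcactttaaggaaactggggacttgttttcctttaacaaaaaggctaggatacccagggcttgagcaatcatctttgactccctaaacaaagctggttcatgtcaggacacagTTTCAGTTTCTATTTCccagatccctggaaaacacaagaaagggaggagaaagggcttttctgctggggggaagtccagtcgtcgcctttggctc
Rsad2: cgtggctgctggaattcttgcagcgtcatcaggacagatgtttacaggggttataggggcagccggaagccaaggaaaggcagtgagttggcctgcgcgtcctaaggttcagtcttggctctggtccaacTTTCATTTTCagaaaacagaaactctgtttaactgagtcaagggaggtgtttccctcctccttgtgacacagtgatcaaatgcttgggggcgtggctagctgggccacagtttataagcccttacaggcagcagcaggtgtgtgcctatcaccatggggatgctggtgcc

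Usp18 (chromosome 6, 121245906 to 121270917, plus strand), the protease gene that removes ISG15 and brakes interferon signalling, stood at 10.9 CPM (9.45 to 14.8) and 2.04 CPM (1.54 to 4.01). It fell by 2.21 ± 0.26 (adjusted p = 1.45e-05). Gbp3, a guanylate-binding protein gene, fell by 2.16 ± 0.31 (adjusted p = 9.81e-05), from 7.96 CPM (6.53 to 11.3) to 1.94 CPM (1.31 to 2.44). Isg15, the ubiquitin-like modifier, fell by 1.56 ± 0.28 (adjusted p = 0.000911), from 11.3 CPM (9.28 to 17.8) to 3.42 CPM (2.44 to 7.69). None of these overlapped between the groups.

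Rsad2, which encodes the antiviral enzyme viperin, fell by 1.66 ± 0.34 (adjusted p = 0.00275), from 8.68 CPM (7.06 to 13.9) to 2.55 CPM (1.4 to 5.74). The transcription factor genes of the pathway fell too, Irf7 by 1.59 ± 0.25 (adjusted p = 0.000312) and Irf9 by 0.69 ± 0.11 (adjusted p = 0.000214), from 39 to 11.8 CPM and from 34.2 to 20.7 CPM. Ifit3, an RNA-binding antiviral gene, had a fall of 1.73 ± 0.27 (adjusted p = 0.000293), with 51.2% of its sequence found in another gene. With CORT mice 1 to 3 alone Rsad2 had adjusted p = 0.0605.

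Markers of immune cells were lower beside the interferon genes. In whole liver, fewer cells of a type and less RNA per cell cannot be told apart. Antigen presentation had 5 of 6 tested members called lower, against 9.29% of all genes, with a median of -2.63. Its 9 genes together took 66.1 to 177 CPM in vehicle and 11.9 to 27.2 CPM in CORT. Xcr1, Flt3 and Siglech were too low to be tested, so the count and median describe only the members that passed the filter on low counts. A member that passed through its level in vehicle alone had to differ, so the count is no test of this list. H2-Aa, a class II molecule gene, fell by 2.80 ± 0.39 (adjusted p = 0.000119), from 22.2 CPM (16.4 to 40.3) to 3.64 CPM (2.04 to 5.19). H2-Eb1, H2-Ab1 and the invariant chain gene Cd74 had log2 fold changes of -2.84 ± 0.41, -2.60 ± 0.40 and -2.46 ± 0.39 (adjusted p = 0.000147, 0.000267 and 0.000366), and Ciita, their master regulator gene, one of -2.30 ± 0.61 (adjusted p = 0.0126). Ciita lost its call with CORT mice 1 to 3, CORT mice 25 to 27 or vehicle mice 10 to 12 alone (adjusted p = 0.0554, 0.106 and 0.0851).

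All 5 tested B cell markers were called lower, with a median of -3.12, and the 9 genes of the list together took 4.21 to 14.6 CPM in vehicle and 0.314 to 2.33 CPM in CORT. Cd79b and Cd79a, the signalling chains of the B cell receptor, fell by 3.33 ± 0.38 and 3.08 ± 0.56 (adjusted p = 9.59e-06 and 0.000843). All 4 tested T and NK cell markers were called lower, with a median of -1.79, and the 13 genes together took 7.73 to 12.5 CPM in vehicle and 2.55 to 3.27 CPM in CORT, where Ncr1 was at 0. Cd4 and the T cell kinase gene Lck fell by 1.77 ± 0.35 and 1.99 ± 0.39 (adjusted p = 0.0015 and 0.00167). These lists hold few tested members because the other 4 B cell and 9 T and NK cell genes were too low to be tested. The counts and medians describe only the members that passed the filter on low counts. A member that passed through its level in vehicle alone had to differ, so the counts are no test of these lists. Over all genes 9.29% were called lower.

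Kupffer cells, the resident macrophages of liver, had fewer of their markers called. The 14 markers together took 339 to 740 CPM in vehicle, where mouse 11 was lowest, and 341 to 497 CPM in CORT. With all 12 mice 3 of 14 were called lower and 1 higher, against 9.29 and 9.04% of all genes, with a median of -0.79. Without mouse 11 the counts were 7 and 1, against 10.7 and 10.1% of all genes. Mpeg1, a pore-forming protein gene of macrophages, fell by 1.57 ± 0.38 (adjusted p = 0.00842), from 93.4 CPM (54.5 to 106) to 31.9 CPM (16.5 to 44.3). Mpeg1 lost its call with CORT mice 1 to 3 or vehicle mice 10 to 12 alone (adjusted p = 0.0941 and 0.0682). Clec4f, the defining Kupffer cell lectin gene, stood at 61.7 CPM (28.4 to 93.9) and 38.9 CPM (29.1 to 56.1) and differed by -0.61 ± 0.29 (adjusted p = 0.155), and by -0.76 without mouse 11 (adjusted p = 0.0534). Slc40a1, the iron exporter gene that hepatocytes express as well, rose by 0.68 ± 0.12 (adjusted p = 0.000867). The called members C1qa and Timd4 lost their calls in 9 and 11 of the 12 fits that left out 1 library, with adjusted p up to 0.0761 and 0.1. The part of immune cell numbers in the fall of the interferon-stimulated genes was not tested.

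Neutrophil and monocyte markers had 2 of 5 tested members called lower, against 9.29% of all genes. Among them was Lyz2, the lysozyme gene (a fall of 1.10 ± 0.29 on the log2 scale, adjusted p = 0.0125), with 15.4% of its sequence found in another gene. The 12 genes together took 29.5 to 80.8 CPM in vehicle and 22.9 to 31.9 CPM in CORT, and the neutrophil marker Ly6g was at 0 in both groups. The untested members of this list were too low for the filter, so the limit given for the B cell list holds here too. Of 17 tested chemokine and NF-kappaB feedback genes 6 were called lower, against 9.29% of all genes, and none higher, with a median of -0.36. Cxcl9, an interferon-gamma-induced chemokine gene, fell by 2.58 ± 0.61 (adjusted p = 0.0073), from 9.81 CPM (5.04 to 23.6) to 2.08 CPM (0.786 to 2.27). Il1b, the interleukin-1 beta gene, fell by 1.56 ± 0.38 (adjusted p = 0.00839), and the chemokine gene Ccl5 by 2.03 ± 0.52 (adjusted p = 0.01). With CORT mice 25 to 27 alone, Cxcl9, Il1b, Ccl5 and Lyz2 had adjusted p = 0.0877, 0.0822, 0.072 and 0.0909. Cxcl9 and Lyz2 had adjusted p = 0.0668 and 0.097 with CORT mice 1 to 3 alone. Il1b and Lyz2 had adjusted p = 0.0563 and 0.0503 with vehicle mice 10 to 12 alone, and Ccl5 had 0.0919 with vehicle mice 13 to 15 alone. The summed interferon list stood at 1070 to 1610 CPM in the chronic CORT+ENZA mice.

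**Figure D3:**
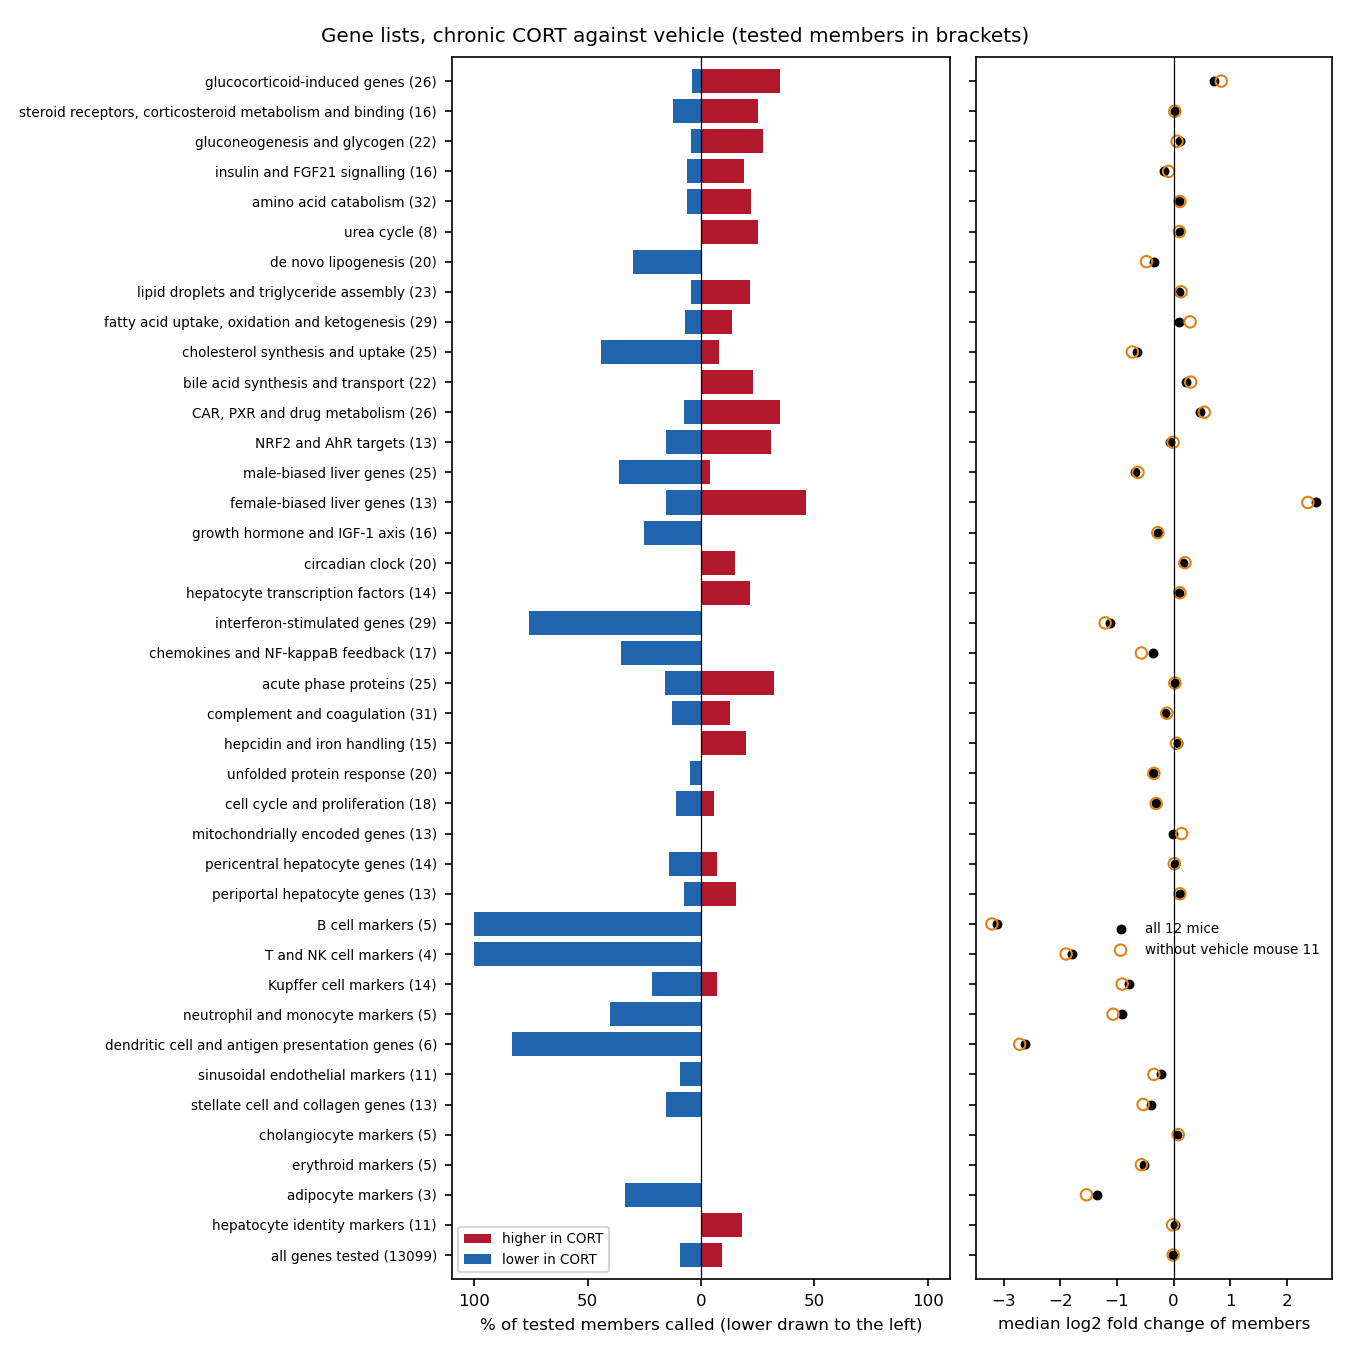
Left, the percent of tested members called higher (red, to the right) and lower (blue, to the left) in CORT for each gene list with at least 3 tested members, with the tested number in brackets and all 13099 genes at the bottom. Right, the median log2 fold change of the tested members with all 12 mice (filled) and without vehicle mouse 11 (open), from -3.12 for B cell markers to 2.51 for female-biased genes.

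Acute phase proteins, which hepatocytes secrete in inflammation, were called higher in 8 of 25 cases and lower in 4, against 9.04 and 9.29% of all genes, with a median of 0.02. Lbp, the lipopolysaccharide-binding protein gene, rose by 1.25 ± 0.14 (adjusted p = 7.96e-06), from 54 CPM (48.1 to 90.4) to 137 CPM (120 to 174). Cp, the ceruloplasmin gene, rose by 0.72 ± 0.09 (adjusted p = 1.41e-05) and Hp, the haptoglobin gene, by 0.62 ± 0.14 (adjusted p = 0.00519). Crp and the serum amyloid P gene Apcs rose by 0.43 ± 0.09 and 0.64 ± 0.13 (adjusted p = 0.00169 and 0.00244).

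Saa1 and Saa2, the serum amyloid A genes, had falls of 2.46 ± 0.51 and 2.22 ± 0.59 (adjusted p = 0.00311 and 0.0152), with overlapping groups and with 32.1 and 31.8% of the sequence shared with another gene. Complement and coagulation had 4 of 31 members called in each direction, not far from the 9.04 and 9.29% of all genes, and a median of -0.15. C3 and the coagulation factor IX gene F9 each rose by 0.60 ± 0.09 (adjusted p = 0.000204 and 0.000103), and C2 and C4b had falls of 0.76 ± 0.16 and 0.40 ± 0.09 (adjusted p = 0.00236 and 0.00467), with 58 and 35.2% of their sequence found in another gene.

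Among genes of growth and of varied function, Ccnd1, the cyclin D1 gene, stood at 22.1 CPM (13.6 to 32.7) and 5.03 CPM (2.57 to 10.1). It fell by 2.03 ± 0.34 (adjusted p = 0.000563), with 23.4% of its exonic bases overlapped. Ccnd2 fell by 0.94 ± 0.18 (adjusted p = 0.00125), and Rrm2, the ribonucleotide reductase subunit gene, rose by 0.91 ± 0.15 (adjusted p = 0.000392). These were the 3 called members of 18 tested in the cell cycle list, whose median was -0.32. Over all genes 9.04% were called higher and 9.29% lower. Mki67, the proliferation marker gene, stood at 0.96 CPM (0.414 to 1.96) and 0.342 CPM (0.108 to 0.854) and differed by -1.41 ± 0.92 (adjusted p = 0.313). Mki67 was called, at about the same fold, with only the 12 libraries in the fit (-1.40, adjusted p = 0.0368) and without CORT+ENZA mouse 18 (adjusted p = 0.0404).

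Egr1, an immediate early transcription factor gene, was also split within vehicle, at 85.8, 110 and 57.6 CPM in mice 10 to 12, 4.58, 3.47 and 2.45 CPM in mice 13 to 15 and 0.629 to 1.8 CPM in CORT. It fell by 5.26 ± 0.94 (adjusted p = 0.00102), with 1.59 against mice 13 to 15 alone (adjusted p = 0.0131) and no call by limma-voom (adjusted p = 0.102). Chrna4, a nicotinic receptor subunit gene, was split the other way, at 17.6, 11.9 and 24 CPM and at 112, 192 and 58 CPM, with 0.419 to 8.36 CPM in CORT. It fell by 3.88 ± 0.75 (adjusted p = 0.00197), and against mice 10 to 12 alone the difference was -1.93 (adjusted p = 0.0791).

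Other genes with large differences kept their calls in each set of 3 mice, and vehicle mouse 11 was lowest of its group for Cib3 and Mmd2. Cib3 fell from 9.67 CPM (2.9 to 15.6) to 0.131 CPM (0 to 0.399), by 5.80 ± 0.67 (adjusted p = 1.46e-05). Adgrf1, an adhesion receptor gene that binds a docosahexaenoic acid derivative, fell by 2.76 ± 0.30 (adjusted p = 8.31e-06), from 18.6 CPM (11.3 to 31.3) to 2.95 CPM (1.26 to 4.66). Mmd2, a membrane receptor gene of the progestin and adipoQ family, fell by 3.00 ± 0.49 (adjusted p = 0.000346). Myom3, a muscle M-band protein gene, rose by 4.67 ± 0.33 (adjusted p = 5.17e-08), from 0.316 CPM (0.135 to 1.01) to 11.5 CPM (5.98 to 14.8), and Slc39a5, a zinc transporter gene, by 3.75 ± 0.38 (adjusted p = 3.45e-06). The rise of Myom3 was 5.53 against vehicle mice 10 to 12 alone and 4.20 against mice 13 to 15 alone.

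Obp2a, an odorant-binding protein gene, divided the CORT mice, at 25.7, 36.3 and 35.3 CPM in mice 1, 25 and 27 and 1.77, 2.27 and 2.17 CPM in mice 2, 3 and 26, against 0.16 to 0.406 CPM in vehicle. Its rise was 6.05 ± 0.92 (adjusted p = 0.000273), with no call by limma-voom (adjusted p = 0.0796) and with 11.7% of its sequence found in another gene. AA986860, a gene without an assigned function, rose by 3.04 ± 0.31 (adjusted p = 3.45e-06).

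**Figure D4:**
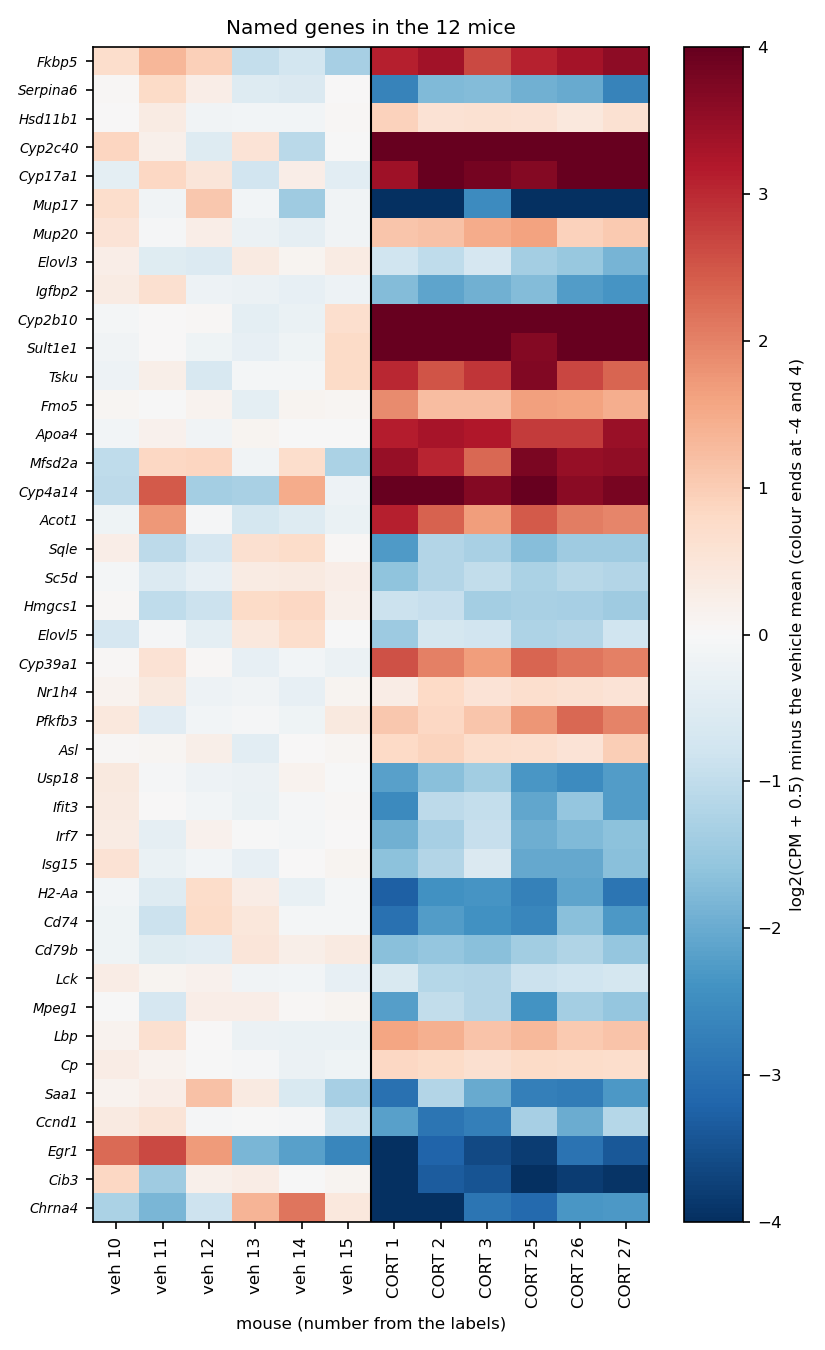
Each cell is log2(CPM + 0.5) of a gene in 1 mouse minus the mean of the 6 vehicle mice, for 41 of the named genes (rows) and the 12 mice (columns, vehicle left and CORT right of the line), with colours ending at -4 and 4. Vehicle mouse 11 is redder for Cyp4a14 and Acot1, and vehicle mice 10 to 12 differ from 13 to 15 for Fkbp5, Egr1 and Chrna4.

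Defining markers of hepatocytes were abundant in all 12 libraries. Hepatocyte identity genes together took 111000 to 131000 CPM in vehicle and 101000 to 135000 CPM in CORT. Of 11 members 2 were called, Apob and Hnf4a, both higher, against 9.04% of all genes. The call of Hnf4a, a hepatocyte transcription factor gene, was lost in 9 of the 12 fits that left out 1 library (adjusted p up to 0.108). Sinusoidal endothelial markers together took 314 to 589 CPM and 282 to 514 CPM, with 1 of 11 called lower, against 9.29% of all genes. Stellate cell and collagen genes took 415 to 592 CPM and 380 to 500 CPM, and against the same share 2 of 13 were called lower. These were Col14a1, at -1.10 ± 0.26 (adjusted p = 0.00802), and Col3a1, at -1.82 ± 0.52 (adjusted p = 0.0229, and 0.0533, 0.0551 and 0.052 without CORT mouse 1, 25 or 27). Adipocyte markers took 9.87 to 228 CPM in vehicle and 10.3 to 22.3 CPM in CORT, and pancreatic markers 27.3 to 43.1 CPM and 6.18 to 21.8 CPM. Almost all of the latter came from the elastase gene Cela1, which fell by 1.64 ± 0.24 (adjusted p = 0.000149), while Cela3b, Pnlip, Amy2a5, Ctrb1 and Try4 were at 0 in both groups.

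Genes of liver zonation gave few calls. Of 14 pericentral genes 1 was called higher and 2 lower, and of 13 periportal genes 2 were called higher and 1 lower, shares near those of all genes. Glul, the glutamine synthetase gene of the cells around the central vein, stood at 1020 CPM (825 to 1110) and 1360 CPM (1200 to 1480) without overlap and differed by 0.43 ± 0.17 (adjusted p = 0.0786), with 14.2% of its sequence found in another gene. Glul was called by DESeq2 (adjusted p = 0.0415), by limma-voom (adjusted p = 0.0144), with only the 12 libraries (adjusted p = 0.00301) and without CORT+ENZA mouse 18 (adjusted p = 0.000862). Cyp2f2, a periportal cytochrome P450 gene, rose by 0.47 ± 0.11 (adjusted p = 0.0055), with 13.5% of its exonic bases overlapped. Lgr5, a receptor gene of the Wnt pathway in pericentral cells, fell by 0.70 ± 0.19 (adjusted p = 0.0133). Of 20 unfolded protein response genes 1 was called, Atf4, which fell by 0.33 ± 0.08 (adjusted p = 0.00896), with a list median of -0.36. Over all genes 9.29% were called lower. Of 15 iron genes 3 were called higher, against 9.04% of all genes, among them the ferritin gene Fth1, by 0.42 ± 0.10 (adjusted p = 0.0055).

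None of 13 mitochondrially encoded genes, 5 cholangiocyte markers or 5 erythroid markers was called, against 18.3% of all genes, with medians of -0.02, 0.06 and -0.52. Of 20 clock genes 3 were called higher (Per1, Cry1 and Clock), against 9.04% of all genes, with a median of 0.17. The calls of Cry1 and Clock were lost in 6 and 8 of the 12 fits that left out 1 library (adjusted p up to 0.0924 and 0.102). Nr1d1, a repressor gene of the clock, stood at 216, 207 and 216 CPM in vehicle mice 10 to 12, at 59.7, 65.2 and 32.4 CPM in mice 13 to 15 and at 63.7 to 111 CPM in CORT. It differed by -0.62 ± 0.38 (adjusted p = 0.283), by -1.30 against mice 10 to 12 alone (adjusted p = 0.000616) and by 0.74 against mice 13 to 15 alone (adjusted p = 0.0558). Of 14 hepatocyte transcription factor genes 3 were called higher, against 9.04% of all genes, with a median of 0.09. Besides Hnf4a these were Onecut2, by 0.56 ± 0.16, and Prox1, by 0.58 ± 0.16 (adjusted p = 0.0166 and 0.0177).

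The chronic effect was set against the acute effect of CORT, measured in other mice with vehicle controls of their own, to see where the effects differed. The difference of the effects (chronic minus acute) was called for 873 of 14138 genes (6.17%), 528 of them higher (3.73%) and 345 lower (2.44%). The acute comparison by itself called 222 of 13733 genes (1.62%), and 210 of these were tested in the chronic arm. Of the 210, 77 were called there, while 18.3% of all genes tested in that arm were called. The 77 made up 34.7% of all 222 acute calls and 3.21% of the chronic calls. Of these 77, 52 were higher in both, 18 lower in both and 7 opposite. Extraction kit and duration cannot be told apart in any of these differences.

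Fkbp5 rose in both arms, by 1.26 ± 0.24 in the acute (adjusted p = 0.00595) and 2.89 in the chronic arm, and the difference of 1.65 ± 0.45 was called (adjusted p = 0.0216). Serpina6 fell by 0.73 ± 0.19 in the acute arm (adjusted p = 0.0452), and the chronic effect was lower by 1.39 ± 0.30 (adjusted p = 0.00316). Hsd11b1 had an acute effect of 0.02 ± 0.09 (adjusted p = 0.955) and a difference of 0.64 ± 0.15 (adjusted p = 0.00684). For Plin5 the acute rise was 1.43 ± 0.16 (adjusted p = 1.91e-05), and the difference of -0.36 ± 0.28 was not called (adjusted p = 0.491).

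Sex-biased and drug metabolism genes gave differences of large size. Cyp17a1 and Fmo2 differed by 4.85 ± 0.62 and 2.72 ± 0.37 (adjusted p = 4.3e-06 and 9.3e-06), with acute effects of -0.97 and 0.24, neither of them called. Mup-ps20, Mup17 and Elovl3 differed by -7.19 ± 1.17, -5.59 ± 1.10 and -1.83 ± 0.48 (adjusted p = 0.000127, 0.00147 and 0.0166), against uncalled acute effects of 0.27, 0.83 and 0.67. Cyp2b10, Sult1e1 and Tsku differed by 4.86 ± 0.80, 5.93 ± 1.73 and 2.02 ± 0.41 (adjusted p = 0.000166, 0.0317 and 0.00185), and Sult1e1 was too low to be tested in the acute arm by itself.

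Metabolic and immune genes differed as well. The differences were 3.16 ± 0.48 for Apoa4, 4.46 ± 0.80 for Cyp4a14 and 1.84 ± 0.29 for Cyp39a1 (adjusted p = 4.18e-05, 0.000438 and 7.69e-05). Acot4 fell in the acute arm by 0.84 ± 0.19 (adjusted p = 0.0175) and rose in the chronic arm, a difference of 2.29 ± 0.32 (adjusted p = 1.03e-05). Usp18 and Ccnd1 differed by -2.44 ± 0.31 and -1.96 ± 0.45 (adjusted p = 2.47e-06 and 0.00604). For B cell genes both arms were lower: Cd79b fell by 1.67 ± 0.27 in the acute arm (adjusted p = 0.0013), and the difference of -1.63 ± 0.47 was called (adjusted p = 0.0285).

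**Figure D5:**
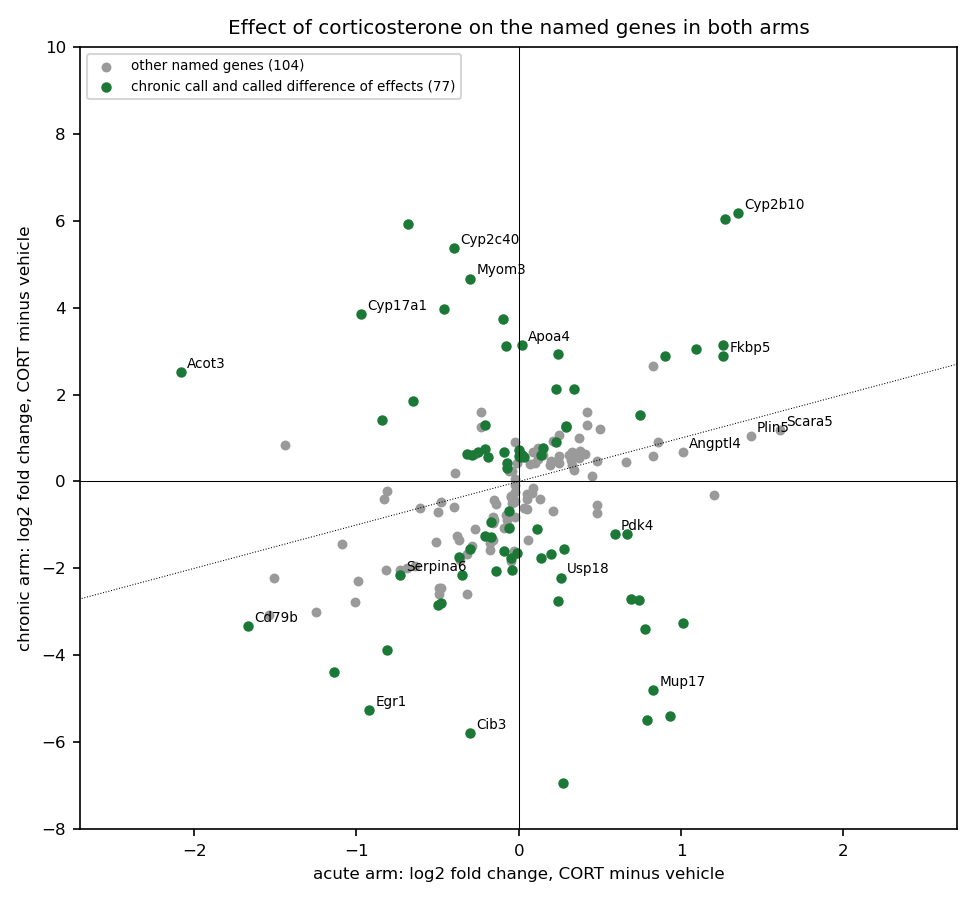
Log2 fold change of CORT against vehicle in the acute arm (horizontal) and in the chronic arm (vertical) for the named genes tested in both, 1 point per gene, with the dotted line where the effects are equal and with axes of unequal scale. Green points are genes called in the chronic arm whose difference of effects was called, with Cyp2b10 highest and Mup-ps20 lowest.

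The chronic mice given CORT with ENZA were in the fit, where they shared in the estimate of the spread, but not in the contrast. Their levels are set beside the others without a test. Cyp2b10 had a median of 903 CPM in CORT+ENZA, against 55.5 in CORT and 0.718 in vehicle, and Cyp3a11 one of 13200 CPM against 1280 and 769. Cyp2c69 and Cyp2c40, high in CORT, stood at 1.71 and 8.3 CPM in CORT+ENZA. Usp18 and Irf7 stood at 17.4 and 84.1 CPM, above their vehicle medians of 10.9 and 39. Fkbp5 and Serpina6 stood at 124 and 90.2 CPM, between the other groups.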

How the data were processed

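Liver mRNA was sequenced as stranded libraries with 100-base paired-end reads, per the labels' protocols. Per the submitters' processing notes reads were handled with STAR 2.7.3a, HTSeq 0.12.4, MultiQC and FastQC on build mm10. The sources used here give neither the annotation release nor the strand setting of the counting. The values are the authors' deposited raw counts per gene, with 55573 gene IDs, of which 55394 had a symbol in the reference annotation. The 5 summary lines for reads given to no gene were left out and made up 31.1 to 36.3% of each of the 12 libraries. Coordinates are those of the GENCODE M21 annotation (GRCm38).

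All 18 chronic libraries were fitted together with the quasi-likelihood test of edgeR 4.0.16 in R 4.3.3, with TMM scaling and filterByExpr (minimum count 10, minimum total 15), and the contrast was CORT minus vehicle. The difference from the acute effect came from 1 model of all 42 libraries over 14138 genes. Adjusted p-values are Benjamini-Hochberg values from these fits, with a threshold of 0.05. Alternatives were RLE scaling, quality-weighted limma-voom (limma 3.58.1), DESeq2 1.42.0, other filters and samples left out. The edgeR script was tested on simulated counts.

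Genes were named by a rule: among genes called, whose groups did not overlap and whose higher group had a mean of 5 CPM or more, the 15 largest changes in each direction, leaving out predicted genes and immunoglobulin segments; the 4 members with the smallest p of each of 40 lists; genes of steroid action; and the 5 largest chronic minus acute differences in each direction. Some were left out for length, and results for some genes are not reported here. Further genes were added for their known role after their values were seen, among them Tat, Pck1, G6pc, Fasn, Cyp7a1, Igf1, Glul, Dbp, Arntl and Rsad2. The members and lists were chosen with earlier results of these data known. A sequence was called shared when at least 10% of a gene's 50-base words occur in another gene, and overlapped when at least 10% of its exonic bases lie in one. Precision follows from 15381724 to 19581723 gene counts per library.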

Additional observations from a re-analysis of the deposited data

Results flagged for a closer look

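In 366 groups of 6 mice checked, each a gene or the first principal component within vehicle or CORT, 28 held 1 mouse that lay far from the other 5. Chance gives about 1 in 20 where groups are independent. These groups come from the same 12 mice, so that rate is no yardstick for the 28. Vehicle mouse 11 was that mouse most often. It lay at 10.3 on the first principal component, held the highest vehicle level of Acot3 (15.7 CPM), Acot1 (26.6 CPM), Fth1 (1160 CPM) and Hnf4a (849 CPM), and the lowest of Cd4 (1.45 CPM), Mpeg1 (54.5 CPM), Clec4f (28.4 CPM), Ccnd2 (7.18 CPM), Cib3 (2.9 CPM) and Mmd2 (2.62 CPM).

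Among the other vehicle mice, mouse 13 was lowest for Fmo5 (444 CPM), Asl (283 CPM) and Arg1 (1120 CPM) and mouse 12 for Glul (825 CPM), while mouse 15 was highest for Sult1e1 (0.691 CPM). CORT mouse 1 was lowest for Dbp (7.6 CPM), Mup11 (2.57 CPM), Igfbp1 (10.2 CPM), Cxcl9 (0.786 CPM) and the adrenergic receptor gene Adrb3 (1.15 CPM) and highest for Slc39a5 (13.7 CPM). CORT mouse 26 was highest for Cyp2b9 (12.4 CPM), mouse 27 for Klb (79.6 CPM), mouse 3 for Mup-ps20 (0.217 CPM) and mouse 25 for Ppp1r3g (0.366 CPM). CORT mouse 2 was lowest for Fasn (518 CPM) and mouse 25 for Myom3 (5.98 CPM).

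Of the 156 called genes examined singly, 78 also had a difference between the chronic and acute effects of CORT called by edgeR in the model of 42 libraries. The differences of 25 of these are given here. Chronic minus acute, on the log2 scale, the difference was 6.63 for Cyp2c69, 5.93 for Sult1e1, 5.81 for Cyp2c40 and 5.01 for Myom3. It was 4.86 for Cyp2b10, 4.85 for Cyp17a1, 4.46 for Cyp4a14, 3.16 for Apoa4 and 2.72 for Fmo2. Smaller positive differences were 2.02 for Tsku, 1.84 for Cyp39a1, 1.65 for Fkbp5, 0.80 for Fmo5 and 0.64 for Hsd11b1. Negative ones were -7.19 for Mup-ps20, -6.29 for Mup18, -6.23 for Mup15, -5.59 for Mup17 and -5.46 for Cib3. The others were -2.97 for Adgrf1, -2.44 for Usp18, -1.96 for Ccnd1, -1.87 for Igfbp2, -1.83 for Elovl3 and -1.39 for Serpina6.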

How the results depend on the processing

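Of the 156 genes called among the 182 examined singly, 129 kept call and direction in every other scaling, filter, tool or set of libraries that tested them, sets of 3 mice aside, and none changed sign with a call. With each of the 12 libraries left out in turn the genes called over the whole table numbered 1842 to 2761, with 944 to 1345 higher and 898 to 1416 lower, and 132 of the 156 kept their calls. The count was 3167 with limma-voom, 2402 with RLE scaling, 1968 with no filter on low counts, 2810 with DESeq2, 2325 with at least 1 CPM in 6 libraries, 2367 with only the 12 libraries and 2922 without CORT+ENZA mouse 18. In comparisons added after the data were seen, CORT mice 1 to 3 alone gave 1424 calls, 778 higher and 646 lower. CORT mice 25 to 27 alone gave 699 lower, and vehicle mice 10 to 12 alone gave 1551 calls, 753 of them lower. Each of these used fewer mice. For the chronic minus acute difference, 873 genes called became 1650 with limma-voom (1002 higher, 648 lower) and 509 without the filter (305 higher, 204 lower), and the cause was not tested. It was 862 with RLE scaling, 1073 with DESeq2, 1104 without vehicle mouse 11 and 1209 without acute replicates L19A and L36A. No paired analysis was possible because the groups compared share no replicate numbers. Genes with few counts could not pass the filter and were not tested, among them 11 of the 24 female-biased genes.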
